A study of Mus musculus with 19 samples.

Results

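A set of 9 astroglial genes were followed across the series: the glutamate transporters Slc1a2 and Slc1a3, the growth factor Gdf10, the homeodomain protein Hopx, the water channel Aqp4, the intermediate filament Gfap, the folate enzyme Aldh1l1, the fatty acid binding protein Fabp7 and the connexin Gja1. They were chosen by name as genes of Bergmann glia and astrocytes, with no rule on their values but with earlier results of these data known, and each symbol matched a single Ensembl identifier, giving 9 of the 41388 genes in the count tables. All 9 passed the filter on low counts in the adult tissue and 8 of 9 passed it in the embryonic tissue, where Gfap had too few reads to be tested.

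Bergmann glia are the radial astrocytes of the adult cerebellum, whose fibres run beside Purkinje cell dendrites and take up the glutamate released there. In the embryo the radial glia that line the ventricles are the progenitors of neurons and later of astrocytes, and they already use some astroglial genes, among them Slc1a3 and Fabp7, whereas Gfap and Aqp4 are switched on in mature astrocytes. The 9 genes were therefore split, from textbook knowledge, into 5 shared with radial glia (Slc1a3, Fabp7, Hopx, Gja1 and Aldh1l1) and 4 of mature astroglia (Slc1a2, Aqp4, Gfap and Gdf10).

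The study asked what loss of a single copy of Wiz, which encodes a zinc finger partner of the G9a/GLP histone methyltransferases, does to gene expression in the brain. RNA-seq was carried out on cerebellum from 3 Wiz +/+ and 3 Wiz MommeD30/+ males at 56 days post partum. Whole brain was taken at E13.5 from 3 embryos of each genotype for males and 2 of each for females. Wiz +/+ samples are called WT and Wiz MommeD30/+ samples Het. The strain was FVB in the labels and FVB/NJ in the study's methods. The MommeD30 allele came from a screen with the mutagen ENU and carries a frame-shifting deletion that the study treats as null. It is kept on the Line3 background, which is homozygous for a multicopy GFP transgene driven by human alpha-globin promoter and enhancer elements, so WT and Het animals descend from the same transgenic stock. Embryos came from intercrosses of Het mice. The labels do not say which littermates the samples were, so p-values measure the spread between these samples only.

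Total counts ran from 16386029 to 50459755 per sample. Wiz itself checked the genotype labels: it lay between 104 and 105 CPM in WT cerebellum and between 73.1 and 74.7 in Het cerebellum, and its fold (Het over WT) was 0.706 in cerebellum, 0.644 in male and 0.672 in female E13.5 brain, with no overlap between genotypes in any of them. CPM are counts-per-million values, a gene's reads over the sample's total, scaled between samples by trimmed means (TMM). The tissue labels held as well: summed CPM of 7 Purkinje cell markers were 7098 to 7627 in cerebellum and 75.7 to 87.6 in E13.5 brain.

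In the adult cerebellum the 9 genes were all strongly expressed, and Slc1a3, which clears glutamate around Purkinje cell synapses, was the highest per length. To compare genes, CPM were divided by exon length in kilobases (RPKM). Exon length is the union of the exons of all annotated transcripts, from 1250 bases for Fabp7 to 13133 for Slc1a2. The transcripts in use can be shorter, so order and shares between genes, here and in the embryo, depend on this length. Over the 6 cerebellums Slc1a3 had a median of 184 RPKM (174 to 187), Hopx 88.6 (85.5 to 91.2), Slc1a2 73.1 (71.5 to 75.6) and Aqp4 68.2 (63.8 to 70.7). Fabp7 followed with a median of 41.7 RPKM (35.3 to 45.0), Gdf10 with 40.7 (37.4 to 42.4), Gfap with 30.3 (28.9 to 35.6), Gja1 with 27.8 (26.6 to 28.8) and Aldh1l1 with 17.9 (17.3 to 18.9). The ranges of neighbours in this order did not overlap except for Fabp7 and Gdf10, though these ranges cover the spread between samples and not the choice of length. Slc1a3 alone held 30.8% to 32.8% of the RPKM summed over the 9 genes.

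The embryonic brain had another order, in which Fabp7, the lipid-binding protein of radial glia, held 82.7% to 84.9% of the summed RPKM. Over the 10 E13.5 brains Fabp7 had a median of 308 RPKM (277 to 340.0). Slc1a2 (19.0, 17.8 to 20.7) and Slc1a3 (17.7, 16.2 to 19.6) came next, and their ranges overlapped. Gja1 (9.19, 7.84 to 10.5) and Aldh1l1 (6.98, 6.47 to 9.28) also overlapped, while Hopx (4.42, 3.84 to 5.67), Gdf10 (1.13, 0.786 to 1.44) and Aqp4 (0.568, 0.316 to 0.722) each lay apart from their neighbours. Gfap was at the bottom with 0.0301 RPKM (0.00892 to 0.0531), which stood for 2 to 11 reads per brain. The defining filament of mature astrocytes was thus near 0 at E13.5, where the name astrocyte genes describes the set and not the cells sampled. Reads of a noncoding gene on the opposite strand of Gfap, Gm26668, numbered 9 to 49 per sample, and it is not stated whether the counting used strand, so the few embryonic Gfap reads are uncertain. In bulk tissue, fewer cells of a type and less RNA per cell cannot be told apart.

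**Figure D1:**
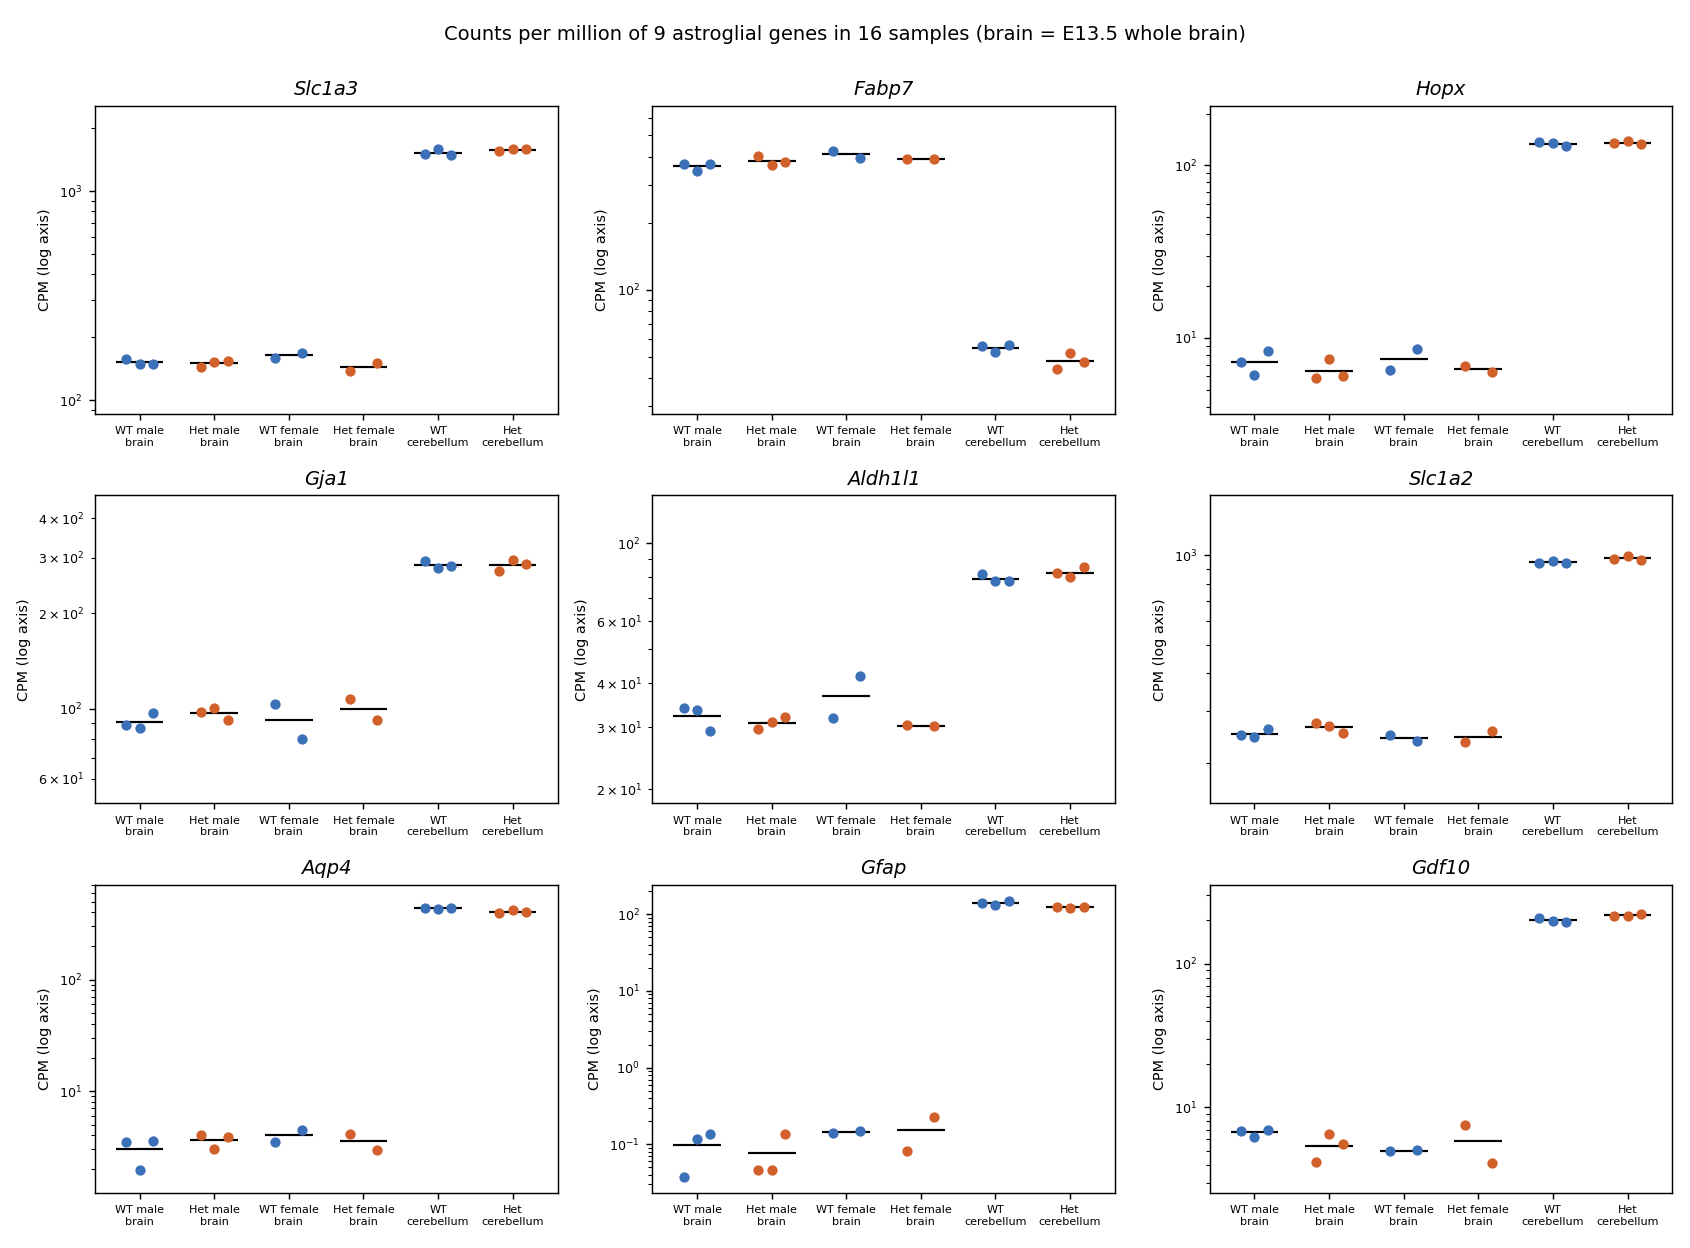
CPM (log axis, whose range differs between panels) of each of the 9 genes in the 16 samples, with a point per sample (blue WT, orange Het) and a black line at the group mean. Fabp7 is the gene that lies lower in the cerebellum, at 44.1 to 56.3 CPM, than in E13.5 brain, at 346 to 425 CPM, whereas the other 8 genes lie higher in the cerebellum.

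Between WT cerebellum and WT male E13.5 brain, 8 of the 9 genes rose and Fabp7 fell. A gene was called when its adjusted p was at most 0.05 and its fold was under 0.7 or over 1.3, the thresholds of the study. All 9 were called, 8 of them higher (36.4% of the 16840 genes tested were called higher) and 1 lower (32.9% were), so a called difference between these tissues was common. Either way 69.3% were called. Genes whose samples did not overlap made up 87.3% of all genes, and all 9 members were among them. The signed median log2 fold change (cerebellum over brain) was 3.33 for the 9 genes and -0.02 for all genes, which moved both ways. Taken without sign, the changes of the 9 genes ran from 1.3 (Aldh1l1) to 10.63 (Gfap), against a median of 0.843 over all genes.

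The genes of mature astroglia gained most. Gfap rose from 2, 2 and 5 reads in the 3 WT male brains to 141, 131 and 150.1 CPM in WT cerebellum. Its fitted log2 fold change was 10.63 (SE 0.14), and the 9 reads behind the embryonic level alone allow a log2 ratio of 9.70 to 11.76 (exact Poisson 95% interval, counting error only). Aqp4, the water channel of astrocyte endfeet, went from 3.5, 1.97 and 3.55 CPM to 441, 427 and 435, a log2 fold change of 7.06 (SE 0.08). Gdf10, a BMP family ligand found in Bergmann glia, went from 6.89, 6.25 and 7.0 CPM to 208, 198 and 195, a log2 fold change of 4.88 (SE 0.05). Slc1a2, the main glutamate transporter of mature astrocytes, rose less, from 249, 245 and 259 CPM to 939, 959 and 942, a log2 fold change of 1.92 (SE 0.04). It was already the second of the 9 genes per length in the embryo, although it had been placed with the mature genes.

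The genes shared with radial glia spread from a large gain to a loss. Hopx, a marker of Bergmann glia and of a class of radial glia, went from 7.21, 6.14 and 8.43 CPM to 137, 134 and 129.7, a log2 fold change of 4.17 (SE 0.07). Slc1a3 went from 157, 149 and 148 CPM to 1510.0, 1580.1 and 1485, a change of 3.33 (SE 0.05). Both rose more than Slc1a2 of the mature group. Gja1, which couples astrocytes through gap junctions, rose by a log2 fold change of 1.65 (SE 0.04), from 87.0 to 96.5 CPM to 279 to 293 CPM. Aldh1l1, the cytosolic formyltetrahydrofolate dehydrogenase used as a pan-astrocyte marker, rose by 1.3 (SE 0.05), from 29.2 to 34.0 CPM to 78.0 to 81.9 CPM. Fabp7 went the other way, from 371, 346 and 372 CPM to 56.0, 52.2 and 56.3, and fell by 2.73 on the log2 scale (SE 0.05).

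The median log2 fold change was 1.65 for the 5 shared genes and 5.97 for the 4 mature genes. Within each sample, the mean log2 CPM of the shared genes minus that of the mature genes was -0.81 to -0.75 in the 6 cerebellums and 3.48 to 3.79 in the 10 E13.5 brains. The difference between WT male brain and WT cerebellum was 4.43 on the log2 scale and is given as a description, with no test. A prior count of 2 was added before the log was taken. With 0.5 in its place the E13.5 brains gave 3.57 to 3.98. Gfap, at 2, 2 and 5 reads in the WT male brains, enters the mature mean, so the size of this difference depends on that setting. The Het samples, which do not enter this contrast, gave log2 fold changes in the same order: Gfap 10.64, Aqp4 6.82, Gdf10 5.34, Hopx 4.39, Slc1a3 3.40, Slc1a2 1.90, Gja1 1.57, Aldh1l1 1.42 and Fabp7 -3.00. Age, brain region and dissection differ together between these tissues and cannot be told apart.

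**Figure D2:**
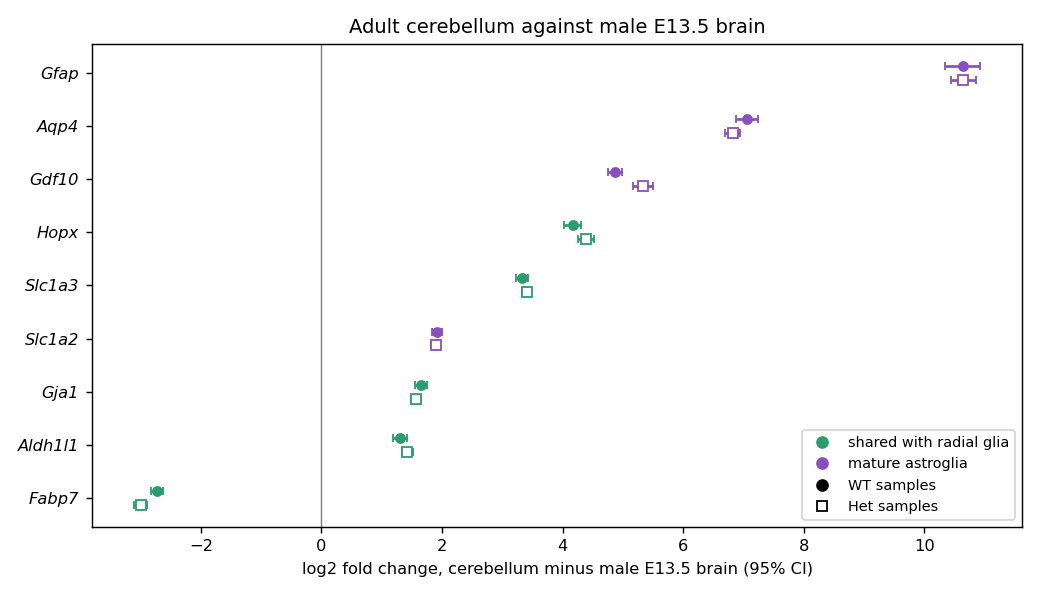
Log2 fold change of each gene between adult cerebellum and male E13.5 brain with its 95% confidence interval (edgeR), for WT samples (filled circles, 3 against 3) and Het samples (open squares, 3 against 3), in green for genes shared with radial glia and purple for genes of mature astroglia. Fabp7 sits at -2.73 (WT) and -3.00 (Het), and Gfap at 10.63 and 10.64.

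Other genes of the same cells, from lists set beside the members, were compared in the same way, against the 36.4% of all genes called higher and 32.9% called lower. Of 35 other astrocyte genes, 28 were called higher in WT cerebellum and 4 lower, with a median log2 fold change of 3.64. The orphan receptor Gpr37l1 (12.15), the calcium-binding protein S100b (9.47) and the protease inhibitor Timp4 (6.24) were examples. Of 18 other radial glia genes, 2 were called higher and 13 lower, with a median of -1.51, among them the filament Nes (-4.15), the adhesion protein Cdh2 (-1.87), the receptor Notch1 (-2.34) and its target Hes5 (-4.95). Of 17 other Bergmann glia genes, 11 were called higher and 6 lower, with a median of 1.03. Of 12 other genes of glutamate transport and the glutamine cycle, 8 were called higher and 3 lower, with the Purkinje cell transporter Slc1a6 at 5.38 and glutamine synthetase, Glul, at 2.35. Partners of Aqp4 and Gja1 in water, potassium and gap junction transport were called higher in 9 of 15 and lower in 3, with Mlc1 at 3.85, Hepacam at 4.61 and Kcnj10 at 4.78 on the log2 scale.

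The comparison of Het with WT asked whether Wiz dosage changes these genes within a tissue. In the cerebellum 3 of the 9 genes differed at an adjusted p of at most 0.05: Gfap and Fabp7 were lower and Gdf10 was higher in Het. None passed the fold threshold as well, so 0 of 9 were called (0.832% of the 15979 genes tested were called). Wiz itself was not called in this fit, because its fold of 0.706 missed the threshold of 0.7 (adjusted p = 9.9e-08, edgeR). The study lists Wiz as decreased in cerebellum. At the adjusted p alone 5.25% of all genes passed, 2.69% higher and 2.56% lower. The samples of the genotypes did not overlap for 5 of the 9 genes, against 24.0% of all genes. The median log2 fold change of the 9 genes was 0.02, and that of all genes was -0.00311.

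Gfap was at 141, 131 and 150.1 CPM in WT cerebellum and at 123, 122 and 125 in Het. Every Het sample lay below every WT sample, and the fold was 0.879 (95% interval 0.828 to 0.932), a log2 fold change of -0.19 (SE 0.04, adjusted p = 0.0125, edgeR's quasi-likelihood test with Benjamini-Hochberg adjustment). Fabp7 was at 56.0, 52.2 and 56.3 CPM in WT and at 44.1, 52.1 and 47.3 in Het. The Het samples were again lower, though the highest of them all but met the lowest WT sample, and the log2 fold change was -0.19 (SE 0.05, adjusted p = 0.0357, edgeR). Gdf10 was at 208, 198 and 195 CPM in WT and at 216, 216 and 221 in Het. Here all Het samples were higher, with a log2 fold change of 0.12 (SE 0.03, adjusted p = 0.0221, edgeR). Each of these calls was lost without certain single samples. Without WT cerebellum replicate 3 the adjusted p was 0.0937 for Gfap, 0.171 for Fabp7 and 0.154 for Gdf10, and without Het cerebellum replicate 1 it was 0.0600, 0.198 and 0.0659. Without Het cerebellum replicate 3 it was 0.0929 for Fabp7 and 0.0614 for Gdf10, and without WT cerebellum replicate 1 it was 0.115 for Fabp7. The directions did not change in any of these fits.

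The promoters of these 3 genes are printed because they are the members whose levels differed between genotypes. Each run is RefSeq sequence of build GRCm38.p6, from 250 bases before the start site to 20 bases after it, read 5′ to 3′ on the strand of the gene. Capitals mark matches on either strand to TTGGC (the core of an NFI site), TGGGAA (RBPJ), TTCNNNGAA (STAT), TGANTCA (AP-1) and TATAAA (the TATA box), of which no AP-1 or TATA match fell in these 3 windows.
Gfap promoter, chr11:102897181-102897450, minus strand: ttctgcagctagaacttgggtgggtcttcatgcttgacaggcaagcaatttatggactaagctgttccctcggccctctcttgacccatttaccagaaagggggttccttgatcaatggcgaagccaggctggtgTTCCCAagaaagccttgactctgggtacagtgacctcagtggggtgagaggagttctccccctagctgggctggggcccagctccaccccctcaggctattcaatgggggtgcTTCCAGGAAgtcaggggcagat
Fabp7 promoter, chr10:57784673-57784942, plus strand: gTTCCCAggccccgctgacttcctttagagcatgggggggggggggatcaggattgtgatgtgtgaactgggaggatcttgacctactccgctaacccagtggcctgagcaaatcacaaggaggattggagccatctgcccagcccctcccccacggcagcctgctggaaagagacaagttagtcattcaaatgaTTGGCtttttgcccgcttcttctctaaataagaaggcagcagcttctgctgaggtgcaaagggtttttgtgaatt
Gdf10 promoter, chr14:33923337-33923606, plus strand: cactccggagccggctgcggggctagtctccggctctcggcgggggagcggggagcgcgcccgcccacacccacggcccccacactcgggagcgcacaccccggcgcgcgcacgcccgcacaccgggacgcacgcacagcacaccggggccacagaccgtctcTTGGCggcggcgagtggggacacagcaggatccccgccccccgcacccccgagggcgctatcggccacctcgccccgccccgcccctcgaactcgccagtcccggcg
In Gfap the capitals are an RBPJ match whose leftmost base is at -115 and a STAT match at -2. In Fabp7 they are an RBPJ match at -249 and TTGGC at -55, and in Gdf10 TTGGC at -87. These are common strings: among 32851 promoter windows of 300 bases, 46.7% held TTGGC, 25.6% TGGGAA, 8.3% TTCNNNGAA, 7.81% TGANTCA and 13.6% the TATA box. A SOX core left in lower case, ACAAT, was in 31.0% of windows and, of the 3 genes, in Fabp7 at -198. Base composition was taken over the full windows of 300 bases, which end 50 bases after the start site and so reach past the printed runs. The full Gdf10 window differed from the others, with 77.3% G and C and 42 CG pairs, against a median of 52.7% and 7 over all windows. The full Gfap window held 3 CG pairs and that of Fabp7 6. A match is a description of the letters and shows no binding. RefSeq windows were found for 8 of the 9 genes, and for Gja1 the window held an AP-1 match at -19.

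The other 6 genes did not pass the adjusted p in cerebellum. Aqp4 came closest, at 441, 427 and 435 CPM in WT and 398, 424 and 402 in Het, with no overlap and a log2 fold change of -0.09 (SE 0.03, adjusted p = 0.0898, edgeR). Slc1a2 did not overlap either, at 939, 959 and 942 CPM in WT and 971, 992 and 962 in Het, with a log2 fold change of 0.05 (95% interval -0.01 to 0.10, adjusted p = 0.375, edgeR). For Slc1a3, Hopx, Aldh1l1 and Gja1 the genotypes overlapped. Their log2 fold changes were 0.05 (95% interval -0.01 to 0.12), 0.02 (-0.04 to 0.09), 0.06 (-0.02 to 0.13) and 0.00485 (-0.06 to 0.07). A difference within these intervals was not resolved with 3 samples a group.

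**Figure D3:**
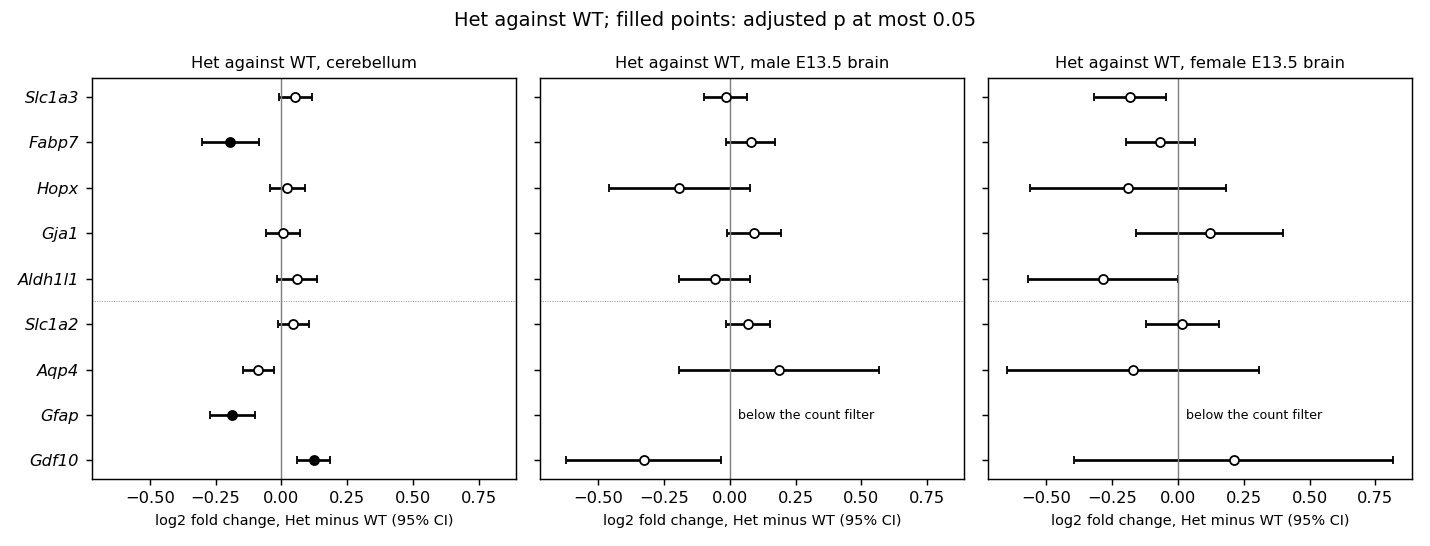
Log2 fold change (Het over WT) of each gene with its 95% confidence interval in cerebellum (3 against 3), male E13.5 brain (3 against 3) and female E13.5 brain (2 against 2), with filled points where the adjusted p (edgeR) was at most 0.05. Gfap (-0.19), Fabp7 (-0.19) and Gdf10 (0.12) in cerebellum are the filled points, and Gfap is not shown for the embryo because it failed the count filter.

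The lists of related genes placed these small differences in context. For list genes compared between genotypes, rose and fell are said below only of those that passed the adjusted p. None of 35 other astrocyte genes passed the adjusted p in cerebellum (median log2 fold change -0.01), and the nearest was the transcription factor Sox9 at -0.27 (adjusted p = 0.0567, edgeR). Of 17 other Bergmann glia genes, 3 fell: Etv5 (-0.30), a target of FGF signalling, the FGF receptor Fgfr1 (-0.13) and Notch1 (-0.18). Of 17 tested radial glia genes, 3 fell and 1 rose. Those that fell were Nes (-0.38), Sox2 (-0.23) and again Notch1, which stands in both lists, and the membrane glycoprotein Prom1 rose (0.28). In glutamate transport 1 of 12 genes fell, the glutamine transporter Slc38a3 (-0.13), and no partner of Aqp4 and Gja1 passed of 15. In reactive astrocytes Gfap itself is usually raised. Among 17 tested genes of that state, Sgk1 (0.51), a kinase induced by glucocorticoids, and F3 (0.45), tissue factor, were called higher. Over all genes 0.832% were called. No reactive gene passed the adjusted p in the lower direction. Those that did not pass lay on both sides of 0, as with C3 (-0.46) and Timp1 (0.67).

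**Figure D4:**
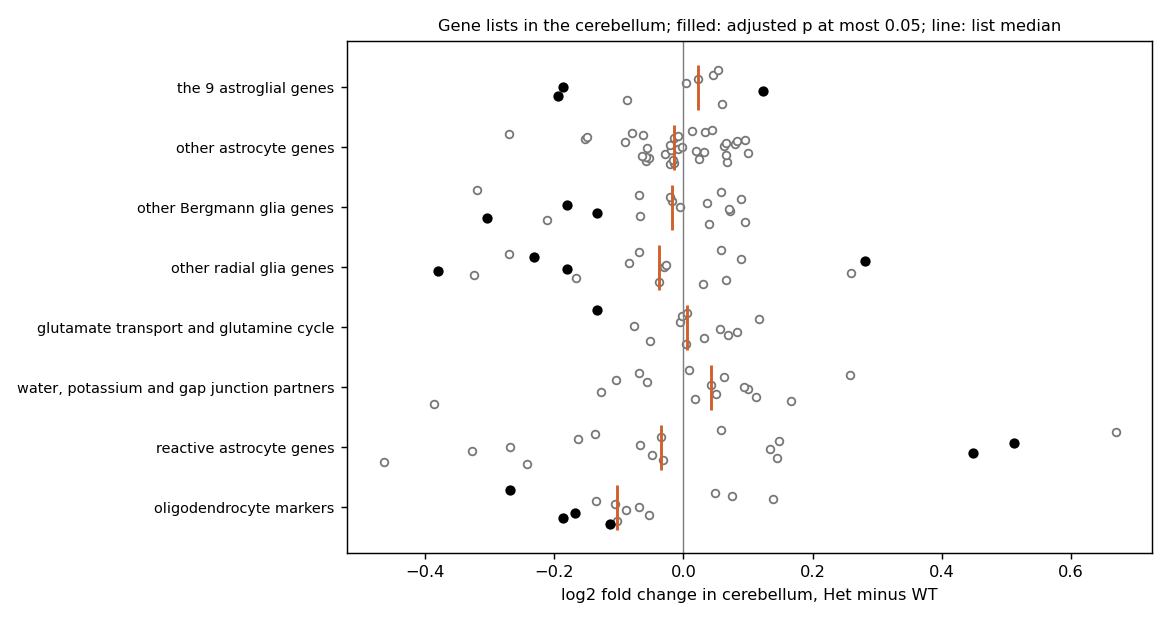
Log2 fold change (Het over WT) in cerebellum for each tested gene of 8 lists, with a point per gene, filled where the adjusted p (edgeR) was at most 0.05, and an orange line at the list median. The medians run from -0.10 for oligodendrocyte markers to 0.04 for water, potassium and gap junction partners, and 0 of 35 other astrocyte genes are filled.

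Markers of other cells also differed between the genotypes in cerebellum. Of 13 oligodendrocyte markers 4 fell, Mbp (-0.17), Mag (-0.19), Cnp (-0.11) and Sox10 (-0.27), with a list median of -0.10. Their summed CPM were 5558 to 5966 in WT and 5355 to 5598 in Het, which overlap, and no marker was at 0. Of 5 tested erythroid markers 4 were called higher, with summed CPM of 160.0 to 249 in WT and 290.5 to 528 in Het. Choroid plexus and ependymal markers summed to 1949 to 2201 CPM in WT and to 2276, 1074 and 2215 in the 3 Het samples, and none of the 8 passed the test. In neither microglia markers (0 of 9) nor Purkinje cell markers (0 of 7) did a gene pass. The part of these shifts in the values of Gfap, Fabp7 and Gdf10 was not tested.

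In E13.5 brain no member passed the adjusted p between genotypes, which does not show that the levels were equal. In males 0 of 8 passed the adjusted p (0.196% of the 16848 genes tested did) and 0 of 8 were called (0.184%). No member had genotypes that did not overlap, against 12.4% of all genes. Fabp7 was at 371, 346 and 372 CPM in WT and 405, 366 and 379.6 in Het, a log2 fold change of 0.08 (95% interval -0.01 to 0.17). The genotypes overlapped for this gene, the most abundant of the set in the embryo. Gdf10 had the smallest unadjusted p, with 6.89, 6.25 and 7.0 CPM in WT and 4.19, 6.49 and 5.53 in Het, a log2 fold change of -0.33 (95% interval without adjustment -0.62 to -0.03, adjusted p = 0.553, edgeR). The WT and Het samples overlapped. The median over the 8 genes was 0.03.

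In females 0 of 8 passed either rule, where 0.111% of the 17152 genes tested passed both. The 2 samples a group did not overlap for 3 of 8 genes, against 36.0% of all genes. These were Slc1a3 (160, 168 CPM in WT and 138, 150.2 in Het; log2 fold change -0.18, adjusted p = 0.773, edgeR), Aldh1l1 (31.9, 41.9 and 30.5, 30.1; -0.28, adjusted p = 0.776) and Fabp7 (425, 396 and 392, 391; -0.07, adjusted p = 0.889). The Aldh1l1 value rested on WT female E13.5 brain replicate 2, the sample at 41.9 CPM: without it the log2 fold change was -0.07 (adjusted p = 1.00, edgeR). Without WT replicate 1, which leaves that sample as the only WT library, it was -0.47 (adjusted p = 0.0128, edgeR), with the lone sample assumed to vary like the Het pair. With both sexes fitted together, 0 of 8 members passed the adjusted p (0.477% of the 17620 genes tested did), 0 of 8 were called (0.346%) and none had genotypes that did not overlap (1.63%). The log2 fold changes then ran from -0.19 (Hopx) to 0.10 (Gja1). No gene of the astrocyte, Bergmann glia, radial glia or glutamate lists passed in the embryo. Of 35 other astrocyte genes 26 had values below 0 with both sexes together, with a median of -0.09 against -0.000519 for all genes, while 14 of 18 radial glia genes had values above 0, with a median of 0.08. Sox9 and Ednrb stand in both lists, and all these values come from the same libraries. No test was made over the lists, so the signs are only a description.

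Whether the effect of genotype differed between sexes or tissues was tested by interaction terms. For sex, 0 of 8 members and 0 of 17620 genes (0.0%) passed the adjusted p with edgeR, 701 genes had an unadjusted p under 0.05, and DESeq2 gave 1 gene. For tissue, none of the 8 members with enough reads in both tissues passed, where 0.26% of the 17337 genes did. For Gfap, with 2 to 5 reads in each male brain, the term could not measure a genotype effect in the embryo, and no value is given. Gdf10 and Fabp7 had the smallest p among the members. The Gdf10 effect was 0.45 higher (SE 0.12) in cerebellum than in male brain on the log2 scale (adjusted p = 0.161, edgeR), and that of Fabp7 was -0.28 (SE 0.08, adjusted p = 0.173). The cerebellar differences of Fabp7 and Gdf10 were therefore not shown to be particular to the cerebellum. With DESeq2 Gdf10 passed this test, and without a filter on low counts both genes did.

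Likeness was measured by Pearson's r of log2 CPM over the 16 samples after the mean of each group was taken away, so tissue and genotype do not enter and sample quality does. Among 11535 genes, the gene most like Slc1a3 was the inward rectifier Kcnj16 (r = 0.931), for Gdf10 it was S100a1 (0.953), for Hopx the cadherin Cdh15 (0.953), and for Aqp4 it was Ttll7 (0.981), followed by Lgi4 (0.973). For Slc1a2 it was D5Ertd579e (0.943), for Aldh1l1 Ube2ql1 (0.940), for Gja1 Nde1 (0.939), for Fabp7 Pfdn4 (0.887) and for Gfap Atp6v1d (0.857). Each of these is the highest of 11535 values and cannot be set against the members' own pairs. Over the 36 pairs of members r ran from -0.744 (Aldh1l1 with Gja1) to 0.509 (Gdf10 with Hopx), and no p is given because these points share libraries and depth. Both Aldh1l1 and Gja1 had their largest SD of log2 CPM within a group in WT female E13.5 brain (0.28 and 0.26). Replicates 1 and 2 lay there at 31.9 and 41.9 CPM for Aldh1l1 and at 103 and 80.4 for Gja1. The share of these libraries in the r of -0.744 was not tested. The r values of Gfap, in its pairs as well, are limited by its 2 to 11 reads per E13.5 brain. The SD of its log2 CPM within a group reached 0.73 there, against at most 0.10 in cerebellum. Every other member except Fabp7 also had its largest SD in E13.5 brain. It reached 0.48 for Aqp4, 0.61 for Gdf10, 0.28 for Hopx, 0.09 for Slc1a2 and 0.09 for Slc1a3, beside the values above for Aldh1l1 and Gja1. For Fabp7 the largest SD was 0.12, in Het cerebellum.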

How the data were processed

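RNA was purified from whole E13.5 brains and adult male cerebellums, and polyA RNA was sequenced as 100 bp single-end reads (Illumina TruSeq RNA kit). The authors mapped reads to mm10 with Tophat (version 2.0.11), and the deposited counts are reads per Ensembl gene from htseq-count (version 0.6.1), with its mode and strand setting not given in the sources used here. Identifiers were matched to symbols and exon lengths in GENCODE M21 (40254 of 41388 matched). The 3 chromatin samples of the series were not analysed here.

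Counts of 16 samples were tested with edgeR 4.0.16 in R 4.3.3: TMM scaling, a filter (filterByExpr, minimum count 10), quasi-likelihood F tests and Benjamini-Hochberg adjustment over all genes kept. Each comparison was fitted on the samples it concerns. The scripts were tested on simulated counts. DESeq2 1.42.0, other filters and scalings, a replicate block and each sample left out in turn were alternatives. The 9 genes, the lists and the promoter motifs were chosen with earlier results of these data known. All members are named, with up to 4 genes of each list by unadjusted p and the 3 most similar genes of each member, of which the nearest is given. Residuals between replicates of a group always exceeded counting noise (chi-square per degree of freedom 2.11 to 11.2), so no sample was counted as a repeat of another.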

Additional observations from a re-analysis of the deposited data

Results flagged for a closer look

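A difference between tissues in the effect of genotype was tested for the members and all list genes, and 3 list genes, none a member, passed (edgeR's interaction term with Benjamini-Hochberg adjustment over 17337 genes, 0.26% of which passed). For Id3, a target of BMP signalling, the log2 fold change (Het over WT) in cerebellum minus that in male E13.5 brain was -0.53 (SE 0.10, adjusted p = 0.0362). Id3 lay at 15.0, 15.1 and 15.8 CPM in WT cerebellum and at 10.2, 11.5 and 11.9 in Het, and the genotypes overlapped in male brain. For Nes, the intermediate filament of radial glia, it was -0.57 (SE 0.12, adjusted p = 0.0440). Nes lay at 21.4, 21.0 and 25.2 CPM in WT cerebellum and 16, 19.4 and 16.5 in Het, and at 362, 414 and 427 in WT male brain against 484, 459.7 and 422 in Het. For the Purkinje cell marker Calb1 it was -0.37 (SE 0.08, adjusted p = 0.0475). Calb1 was at 15.0, 15.7 and 17.4 CPM in WT male brain and at 23.6, 20.4 and 20.5 in Het, with 960 to 977 CPM in WT and 989 to 1033 in Het cerebellum. Between genotypes in cerebellum, Id3 (adjusted p = 0.00232, edgeR) and Nes (0.0102) passed and Calb1 (0.191) did not. None of the 3 passed in male brain (0.799, 0.433 and 0.0588), where the study lists Calb1 as increased. The interaction passed for 45 genes, and for 13 with a replicate block. Whether these 3 remained was not recorded.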

How the results depend on the processing

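No member or comparison changed direction among the calls, and all 9 members were called between tissues under every alternative run. In cerebellum 133 genes were called, 80 with DESeq2, 211 with no filter on low counts and 839 with no fold threshold, where 3 members were called instead of 0. Leaving out each sample gave 70 to 153 genes and 0 to 3 members past the adjusted p (0 without WT cerebellum replicate 3). In male brain 31 genes were called, 175 with no filter and 20 to 117 with a sample left out. In female brain 19 were called, 32 with DESeq2, 0 to 261 with a sample left out and 0 to 1 members past the adjusted p. Where this left a single sample in a group, it was assumed to vary like the others. With both sexes 61 were called, 101 with no filter. By sex 0 genes passed, 1 with DESeq2, 1 with no filter and 0 to 13 with a sample left out. By tissue 45 passed, 121 with DESeq2, 416 with no filter and 14 to 103 with a sample left out, and 0 members passed, 1 with DESeq2, 2 with no filter and 0 to 1 with a sample left out. The cause was not tested. With no filter Aqp4 passed in cerebellum (adjusted p = 0.0482, edgeR). Same-numbered samples of the 2 genotypes did not deviate together (correlations of -0.13 to 0.014), so the numbers were not taken as pairs. The replicate block gave 3 genes in female brain, 13 by tissue, and the same 3 members in cerebellum. Embryonic Gfap values are limited by their few reads, 2 to 11 per brain.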

Other observations

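Genes of the pathways around the members that were not described above are given here, against 36.4% of all genes called higher and 32.9% called lower between the tissues. Of 24 genes of BMP signalling, to which Gdf10 belongs, 6 were called higher and 11 lower in WT cerebellum than in WT male E13.5 brain, with the receptor Tgfbr1 at -3.46 and Smad9 at 3.80 on the log2 scale. Between genotypes in cerebellum 1 of 23 tested rose, the receptor Bmpr2 (0.12), and 1 fell, Id3 (-0.45). Of 11 folate enzymes related to Aldh1l1, 7 were called lower and 2 higher in the adult tissue, among them Tyms (-2.78), which serves DNA synthesis, and Mthfd2l (-3.36), a mitochondrial enzyme, and none passed between genotypes in cerebellum. Fabp5, the fatty acid binding protein of progenitors and epidermis, fell with Fabp7 (-2.40), while Fabp3 rose (1.66). Neither passed between genotypes in cerebellum.

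Of 12 granule and other neuron markers 3 fell in Het cerebellum, Tubb3 (-0.27), Eomes (-0.26), a marker of unipolar brush cells, and Zic1 (-0.11). None passed the adjusted p in the higher direction. The markers that did not pass lay on both sides of 0, as with Dcx (0.13) and Stmn2 (-0.06). Of 7 endothelial markers, the transporter Slco1a4 rose (0.23) and the tight junction gene Cldn5 fell (-0.26). Of 6 meningeal markers, Col1a1 fell (-0.30) and none passed in the higher direction. The meningeal markers that did not pass lay on both sides of 0, as with Lum (0.26) and Slc22a6 (-0.14). Summed CPM of this list overlapped, at 99.3 to 112.8 in WT and 100.6 to 112.9 in Het cerebellum. No gene of these lists passed between genotypes in E13.5 brain.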
